A study of Mus musculus with 8 samples.

Results

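Hfe and 5 other genes of iron handling, Tfrc, Trf, Fth1, Ftl1 and Slc11a2, were followed in the epididymal fat of 4 mouse lines on Affymetrix arrays. Their probe sets were taken by gene symbol from the platform annotation, which gave 5 of the 6137 named genes and 7 of the 13069 probe sets in use: 1 for Hfe, 1 for Tfrc, 2 for Fth1, 1 for Ftl1 and 2 for Slc11a2. No probe set carried the symbol Trf, so transferrin was absent from the data used here. A further 2 probe sets listed Ftl1 together with other genes and were kept apart. The genes were picked because Hfe was known from these arrays to be high in DU6 and DU6i, so its levels are described and not tested.

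By general knowledge DU6 was bred for high body weight, DU6i was inbred out of DU6, DUKs is their unselected control and DBA is an inbred strain; the labels give the line names and call the mice selected. For each line, RNA from the fat of 20 males aged 42 days was pooled and hybridised to 1 array of chip A and 1 of chip B. No transgene or treatment is given for any line. A pool hides the spread between animals, no line had a second pool, and differences between 2 lines are therefore differences between 2 pools, without a test.

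HFE is a membrane protein built like an MHC class I chain. It pairs with beta-2 microglobulin and binds the transferrin receptor, and in the liver it takes part in the signal that turns on hepcidin, the hormone that lowers iron release into the blood. Transferrin carries iron in plasma, the transferrin receptor (Tfrc) takes it into the cell, the divalent metal transporter Slc11a2 moves it out of the endosome, and the heavy and light ferritin chains (Fth1, Ftl1) store it. Ferritin is controlled largely at translation by the iron regulatory proteins, which arrays of mRNA do not read.

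The reference sequence before the transcription start (RefSeq, GRCm38.p6) is shown for the 3 genes whose signals the results turn on, to set the gene that differed between lines beside the ferritin chains. These are C57BL/6J sequences and not those of the 4 lines. Each covers 250 bases, 5′ to 3′ on the gene's strand: chr13:23710855-23711104 (minus) for Hfe, chr19:9982396-9982645 (plus) for the second of the 2 starts listed for Fth1, and chr7:45459887-45460136 (minus) for Ftl1. Capitals mark matches on either strand to the CCAAT box, the Sp1 motif GGGCGG, the TATA box spelled TATAAA, or the core of the antioxidant response element spelled TGACNNNGC.
Hfe: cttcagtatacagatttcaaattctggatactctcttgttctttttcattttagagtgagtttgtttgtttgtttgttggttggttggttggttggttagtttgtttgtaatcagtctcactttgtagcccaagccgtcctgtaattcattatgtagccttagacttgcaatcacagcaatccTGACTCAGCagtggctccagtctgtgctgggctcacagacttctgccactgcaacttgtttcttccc
Fth1: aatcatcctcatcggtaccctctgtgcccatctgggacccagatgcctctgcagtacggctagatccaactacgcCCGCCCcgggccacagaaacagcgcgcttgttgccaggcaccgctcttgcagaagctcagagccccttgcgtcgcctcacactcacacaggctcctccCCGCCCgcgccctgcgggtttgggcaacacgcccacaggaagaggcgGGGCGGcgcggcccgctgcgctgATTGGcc
Ftl1: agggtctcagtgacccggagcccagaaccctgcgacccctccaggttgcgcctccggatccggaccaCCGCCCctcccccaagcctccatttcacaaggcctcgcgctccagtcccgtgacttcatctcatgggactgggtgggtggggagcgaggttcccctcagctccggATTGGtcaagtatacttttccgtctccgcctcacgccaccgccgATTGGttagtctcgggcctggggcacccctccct

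The Hfe window held 1 match to TGACNNNGC and none to the other motifs. The Fth1 window held 3 matches to GGGCGG and 1 to CCAAT, and the Ftl1 window 1 and 2. Of all 32851 windows of this length in the table, 33.8% held the CCAAT box, 32.7% the Sp1 motif, 12.4% the TATA box and 10.2% the antioxidant motif. These are matches of letters and not shown binding sites.

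Signals are the authors' scaled intensities, and arrays were compared only within a chip. The size of the negative signals fixed a floor, 1022.8 on chip A and 2258.25 on chip B. Lower signals were raised to this floor ahead of the log2 step, so ratios against them are bounds, given with "at least". Of the 11 adipocyte marker genes with a probe set, 10 were above the floor in all 4 lines; Adig was under it in DUKs. Transcripts that are not those of fat cells were measured too: 5 of 9 germ cell markers were above the floor in all 4 lines. So were 13 of 13 macrophage markers. The 99th percentile of an array's signals ranged from 18810 in DU6 to 34793 in DU6i on chip A, and from 33622 in DBA to 52203 in DUKs on chip B. Pyruvate carboxylase is a control transcript with probe sets along its length. Its second middle probe set was read in percent of the 3′ one. The chip A values were 15.3% in DU6, 54.5% in DU6i, 53.9% in DUKs and 19.5% in DBA. Chip B, which holds Hfe, had 12.7% in DU6, 45.3% in DU6i, 55.6% in DUKs and 14.3% in DBA. The first middle and the 5′ probe sets of both chips were under the floor in DU6 and DBA only. DU6 vs DUKs thus set a line with a low percentage against one with a high percentage, and DU6i vs DBA the reverse. What this did to the ratios was not tested.

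Hfe was above the floor in the 2 DU6 lines and at or under it in both others. Its probe set (y12650_s_at, chip B) read 8183 in DU6 against 1232 in DUKs, and 8227 in DU6i against 1922 in DBA. The DU6 and DU6i signals were nearly equal, with a log2 ratio of -0.01. Hfe was thus higher by at least 3.62-fold in DU6, set against DUKs, and by at least 3.64-fold in DU6i, set against DBA. The order between DUKs and DBA cannot be read, since both signals lay under the floor. Genes detected by exactly 2 probe sets gave a technical SD of a log2 ratio of 0.44 between DU6 and DUKs (346 genes) and of 0.34 between DU6i and DBA (348 genes). The Hfe log2 ratios were 1.86 and 1.87. Differences between animals or pools are not part of that SD. In all, 3.91% of 5604 probe sets were 2-fold or more higher in DU6 than in DUKs, and 4.79% of 5556 in DU6i than in DBA; nothing is read from these shares for Hfe, which was chosen on these values.

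**Figure D1:**
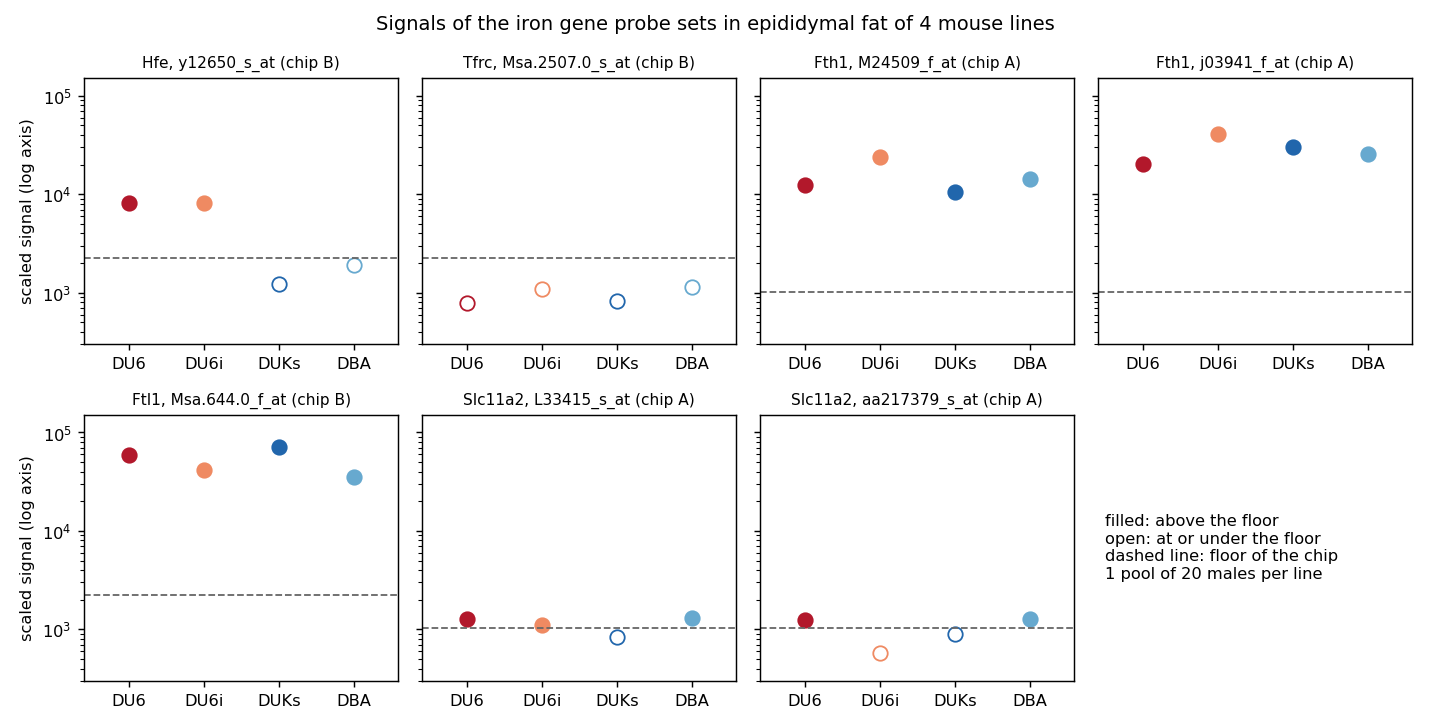
Scaled signal (log axis) of the 7 probe sets of Hfe, Tfrc, Fth1, Ftl1 and Slc11a2 in the pools of DU6, DU6i, DUKs and DBA; dashed lines are the floors of the chips, and open symbols lie at or under them. Hfe is above its floor in DU6 (8183) and DU6i (8227) only, Tfrc is under it in all 4 lines, and the ferritin probe sets are far above it everywhere.

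The Hfe ratios hardly moved with the scaling, in which the floor stayed at 2258.25. The DUKs and DBA signals remained under it, so only the DU6 and DU6i signals could move these ratios. After quantile normalisation the Hfe signals were 8072 in DU6, 8256 in DU6i, 1138 in DUKs and 1881 in DBA. The ratios did move with the height of the floor: with the floor doubled to 4516.5 the log2 ratios were 0.86 and 0.87, under 2-fold, since the bound is set by the floor itself.

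On chip B 2288 probe sets were above the floor in at least 1 line. Of these, 22 were above it in DU6 and DU6i only, Hfe among them, and 47 in DUKs and DBA only. The 5 named genes nearest to the Hfe pattern, by the root mean square difference of log2 signals centred on the 4 lines, were Nid2 (0.29), Lgals3 (0.40), Cbr2 (0.40), Lmo4 (0.41) and Itgb2 (0.43). Nid2, a basement membrane protein, had signals of 5378 in DU6, 7932 in DU6i, 2036 in DUKs and 2537 in DBA. Itgb2, the beta chain of the leukocyte integrins, had 4288 in DU6 and 1621 in DUKs, and 4811 in DU6i and 2138 in DBA. The likeness was taken over 4 pools and is a description.

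**Figure D2:**
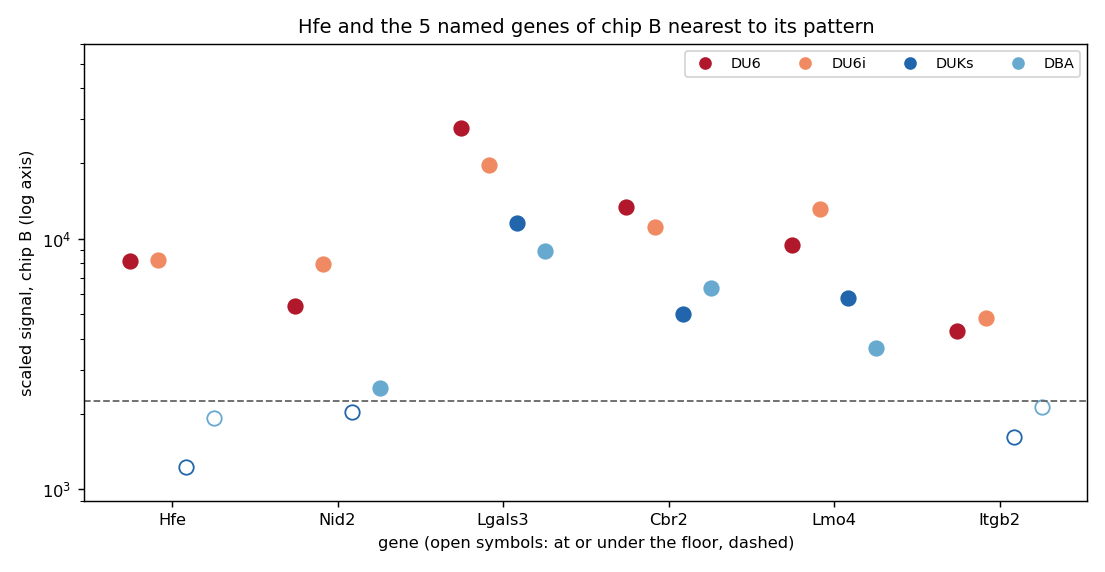
Scaled signal on chip B (log axis) of Hfe and the 5 named genes nearest to its pattern, in DU6, DU6i, DUKs and DBA; the dashed line is the floor and open symbols lie at or under it. All 6 genes are higher in DU6 and DU6i than in DUKs and DBA, and Lgals3 is above the floor in all 4 lines (27658, 19661, 11603 and 8962).

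Lgals3 and Itgb2 are made by macrophages. Markers of macrophages and of germ cells differed between the lines in which Hfe differed, and also between DUKs and DBA. Of the 13 macrophage genes measured, 12 were higher in DU6 than in DUKs, with a median log2 ratio of 0.51. All probe sets had a median of 0.05 there, and named genes, 1 probe set each, of 0.10. In DU6i vs DBA 11 macrophage genes were higher, with a median of 0.69, against -0.03 and -0.08. Their summed signal on chip B, over 9 genes, was 145034 in DU6, 117683 in DU6i, 96008 in DUKs and 76038 in DBA. On chip A, over 4 genes, the order was another: 39216 in DU6, 56596 in DU6i, 49529 in DUKs and 36229 in DBA. The brightest of these genes was Lyz2, with 19244 in DU6, 41964 in DU6i, 34013 in DUKs and 26092 in DBA. Only Lyz2 among them was lower in DU6 than in DUKs, with a log2 ratio of -0.82. Cd68, Ctss and Fcgr3 had 0.66, 0.16 and 0.59 there, and 1.13, 0.75 and -0.04 in DU6i vs DBA. Of 8 germ cell markers measured, 8 were lower in DU6 than in DUKs (median -2.04) and 8 lower in DU6i than in DBA (median -1.07). Their summed signal on chip B, over 2 genes, was 24359 in DU6, 12688 in DU6i, 91758 in DUKs and 34429 in DBA; on chip A, over 7 genes, it was 29166, 26330, 121083 and 63728 in the same order of lines. Between DUKs and DBA, 8 of 8 germ cell markers were higher in DUKs (median 1.21), and so were 10 of 13 macrophage genes (median 0.37). Over all probe sets the median there was -0.01. In pooled tissue, fewer cells of a type and less RNA per cell cannot be told apart. Adipocyte markers had a median of -0.71 between DU6 and DUKs, and of 0.91 between DU6i and DBA. The part of any of these cell types in the Hfe signal was not tested.

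Hfe lies on chromosome 13 among the histone genes. Of the 30 coding genes next to it in the reference annotation, 15 on each side, 7 had a probe set and 5 of these were at or under the floor in all 4 lines. H1f2, a linker histone and the nearest coding gene on one side, had signals of 3281 in DU6 and 1384 in DUKs, and of 2677 in DU6i and 739 in DBA. H1f2 was thus also above the floor in the DU6 lines only, by a smaller margin than Hfe. H2bc1, a histone of the testis, was above it in DU6 only (3128).

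B2m, the partner chain of HFE and of all class I molecules, was within 2-fold in both main pairs. It gave 48806 in DU6 against 65238 in DUKs, and 31079 in DU6i against 28116 in DBA. The log2 ratios were -0.42 and 0.14. Its lines ran in the order of the 99th percentiles of chip B (DUKs, DU6, DU6i, DBA), and after quantile normalisation the ratios were -0.25 and 0.18. Among 16 class I genes listed as relatives of Hfe, 10 had a probe set and 6 were measured in each pair, with medians of 0.02 and 0.08. Cd1d1, which presents lipids, was the member at 2-fold or more, with 7663 in DU6 and 3588 in DUKs.

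In the pathway from HFE to hepcidin, 13 of 19 listed genes had a probe set and 8 were above the floor in any line. By the probe set with the highest mean signal of each gene, none reached 2-fold in a main pair (0 of 6 and 0 of 8 measured). Over all probe sets, 3.91% were 2-fold or more higher and 6.3% lower in DU6 vs DUKs. In DU6i vs DBA the shares were 4.79% and 6.68%. With so few genes, nothing is read from these counts. The medians of the pathway genes were 0.01 and 0.10. A dimmer probe set of Smad4 was past 2-fold in both pairs, in opposite directions, and is given with the regulators below. Furin, a protease that processes hepcidin, gave 5180 in DU6 against 3176 in DUKs, and 5332 in DU6i against 6421 in DBA. Id1, a target of BMP signals, had log2 ratios of -0.25 and 0.05. Bmp4, a BMP ligand, was lower in both pairs, with log2 ratios of -0.52 and -0.79. Bmp6, the ligand that reports liver iron, was above the floor in DU6i only (3154). Hepcidin (Hamp) had 432 in DU6, 1333 in DU6i, 472 in DUKs and 258 in DBA, under the floor in all 4 lines.

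Of the genes of iron entry, Tfrc was at the limit of detection. The probe set annotated to it on chip B had signals of 787 in DU6, 1080 in DU6i, 824 in DUKs and 1138 in DBA. No ratio and no order of the lines is given, since all were under the floor. Among the control probe sets for Tfrc on both chips, the 3′ one on chip A was above its floor in DU6i only, at 1064.

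Slc11a2 stood at the floor. Probe set L33415_s_at (chip A) had 1280 in DU6 and 839 in DUKs, and 1100 in DU6i and 1306 in DBA. Probe set aa217379_s_at had 1237 in DU6 and 893 in DUKs, and 574 in DU6i and 1286 in DBA. Both probe sets thus put DU6 above DUKs and DU6i below DBA. The log2 ratios were at least 0.32 and 0.27 in DU6 vs DUKs, where the technical SD was 0.44. As bounds they cannot be placed within that SD, and with the floor halved they were 0.61 and 0.47. In DU6i vs DBA they were -0.25 and, against a signal under the floor, -0.33 as a bound, with a technical SD of 0.34. With the floor halved, the second became -1.16, past 2-fold.

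The ferritin genes gave bright signals in every line, in an order that depended on the chip. Fth1, the heavy chain, which oxidises the iron it stores, read by j03941_f_at (chip A) 20389 in DU6 against 29891 in DUKs, and 40448 in DU6i against 25730 in DBA. By M24509_f_at it had 12488 in DU6 against 10550 in DUKs, and 23634 in DU6i against 14372 in DBA. DU6i was highest by both probe sets, whereas DU6 lay below DUKs by the first (log2 ratio -0.55) and above it by the second (0.24). In DU6i vs DBA the log2 ratios were 0.65 and 0.72. No ferritin probe set reached 2-fold in these pairs.

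Ftl1, the light chain, which helps the iron core to form, read by its chip B probe set 59331 in DU6 against 70467 in DUKs, and 41356 in DU6i against 35685 in DBA. The log2 ratios were -0.25 and 0.21, within the technical SDs of 0.44 and 0.34. On this chip DUKs was highest and DBA lowest. The 2 chip A probe sets that list Ftl1 with other genes ran like Fth1: j04716_f_at had 20116 in DU6 and 32493 in DUKs, and 44269 in DU6i and 25316 in DBA. M73706_f_at had 7718 in DU6 and 13686 in DUKs, and 18850 in DU6i and 11505 in DBA. Because ferritin genes have many near copies in the mouse genome and these probe sets carry the suffix of sequence families, which copy gave the signal is uncertain.

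The brightest ferritin probe sets followed the range of their arrays. As a share of the array's 99th percentile, j03941_f_at was 108% in DU6 and 108% in DUKs, and 116% in DU6i and 110% in DBA. Ftl1 on chip B was 120% in DU6 and 135% in DUKs, and 119% in DU6i and 106% in DBA. After quantile normalisation the log2 ratios of j03941_f_at were 0.05 for DU6 over DUKs and -0.02 for DU6i over DBA. Both had turned in sign but were within the technical SDs of 0.44 and 0.34. The log2 ratios of Ftl1 were -0.09 and 0.19. Quantile normalisation gives equal ranks equal values on every array, so small ratios were largely fixed for the brightest probe sets. The log2 ratios of the dimmer M24509_f_at were then 0.26 and 0.44, and those of M73706_f_at -0.93 and 0.50.

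**Figure D3:**
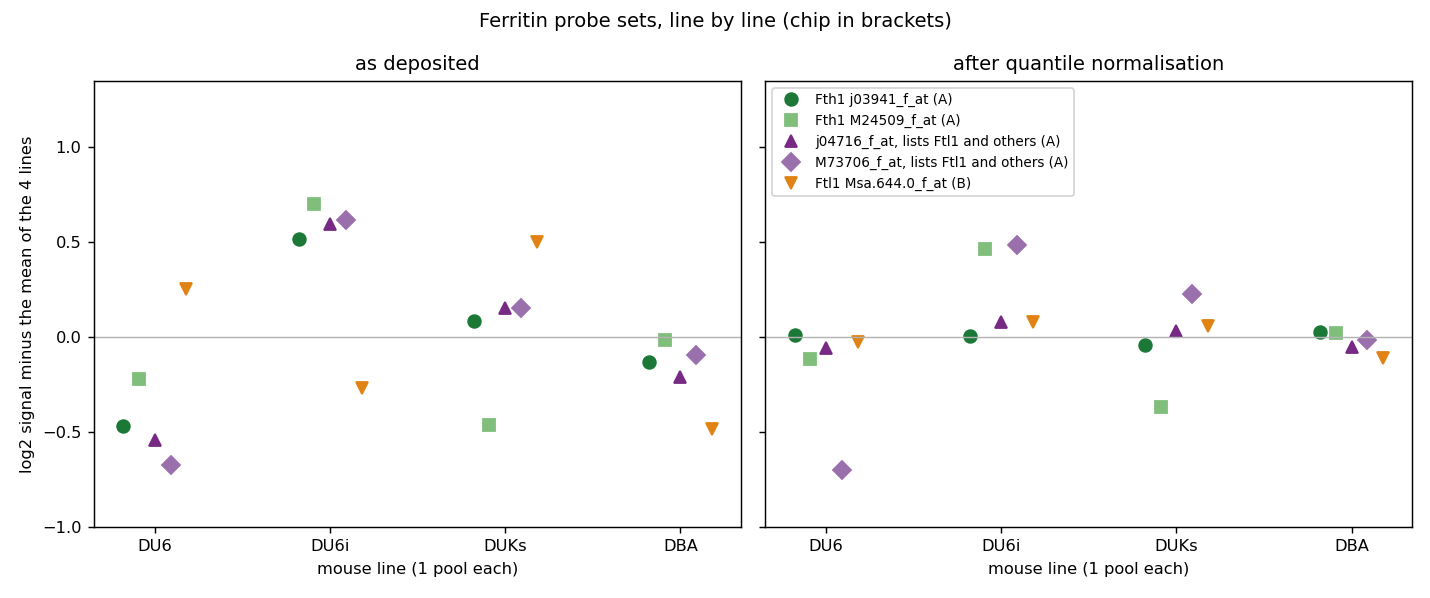
Log2 signal minus the mean of the 4 lines for 5 ferritin probe sets in DU6, DU6i, DUKs and DBA, as deposited and after quantile normalisation. As deposited, the chip A probe sets are highest in DU6i and the chip B probe set in DUKs; after normalisation the 3 brightest lie close to 0 in all lines, and M24509_f_at and M73706_f_at still differ between lines.

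Among the 6 member probe sets measured in each main pair, 1 was 2-fold or more higher (Hfe) and 0 were 2-fold or more lower, and so it was in either pair. Their median log2 ratios, with Hfe among them and 2 probe sets each for Fth1 and Slc11a2, were 0.26 and 0.43. Hfe was chosen as high in DU6 and DU6i, so nothing is read from these counts or medians beside those of all probe sets. Over all probe sets, 6.3% were 2-fold or more lower in DU6 than in DUKs and 6.68% in DU6i than in DBA.

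The other 4 pairs share arrays with the main pairs. Where DU6 or DU6i is set against DUKs or DBA, the choice of Hfe fixed its place among the higher members. The shares are given for size only. Between DU6 and DBA, 1 of 6 measured member probe sets was 2-fold or more higher (Hfe) and 0 lower, where 3.79% of all probe sets were higher and 4.17% lower. Between DU6i and DUKs, 2 of 5 were higher and 0 lower, where 3.39% of all were higher and 6.76% lower. The second was M24509_f_at of Fth1, 2.24-fold higher in DU6i, with a log2 ratio of 1.16 that was 0.83 after quantile normalisation. Between DU6 and DU6i, 0 of 6 reached 2-fold, where 4.8% of all were higher and 5.7% lower. The Fth1 log2 ratios there were -0.99 for j03941_f_at and -0.92 for M24509_f_at, and that of Ftl1 was 0.52. Between DUKs and DBA, 0 of 5 reached 2-fold, where 6.01% of all were higher and 5.29% lower. Ftl1 came nearest there, 1.97-fold higher in DUKs, with a log2 ratio of 0.98 that was 0.17 after quantile normalisation.

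The wider iron pathway was read from a list of 80 genes beside the members, of which 42 had a probe set and 33 were above the floor in at least 1 line. In DU6 vs DUKs 2 of 31 measured genes were 2-fold or more higher and 2 lower, with a median log2 ratio of 0.23. In DU6i vs DBA 2 of 32 were higher and 2 lower, with a median of 0.04. The shares of all probe sets are given above. Between DU6 and DU6i on one side and DUKs and DBA on the other, 0 of 30 list genes passed an adjusted p of 0.05 by limma, and 0 had an unadjusted p under 0.05; over all 5267 probe sets tested 0 passed (0.0%) and 252 had an unadjusted p under 0.05. That test takes the line as the unit with 2 lines per side, and DU6 and DU6i are related.

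**Figure D4:**
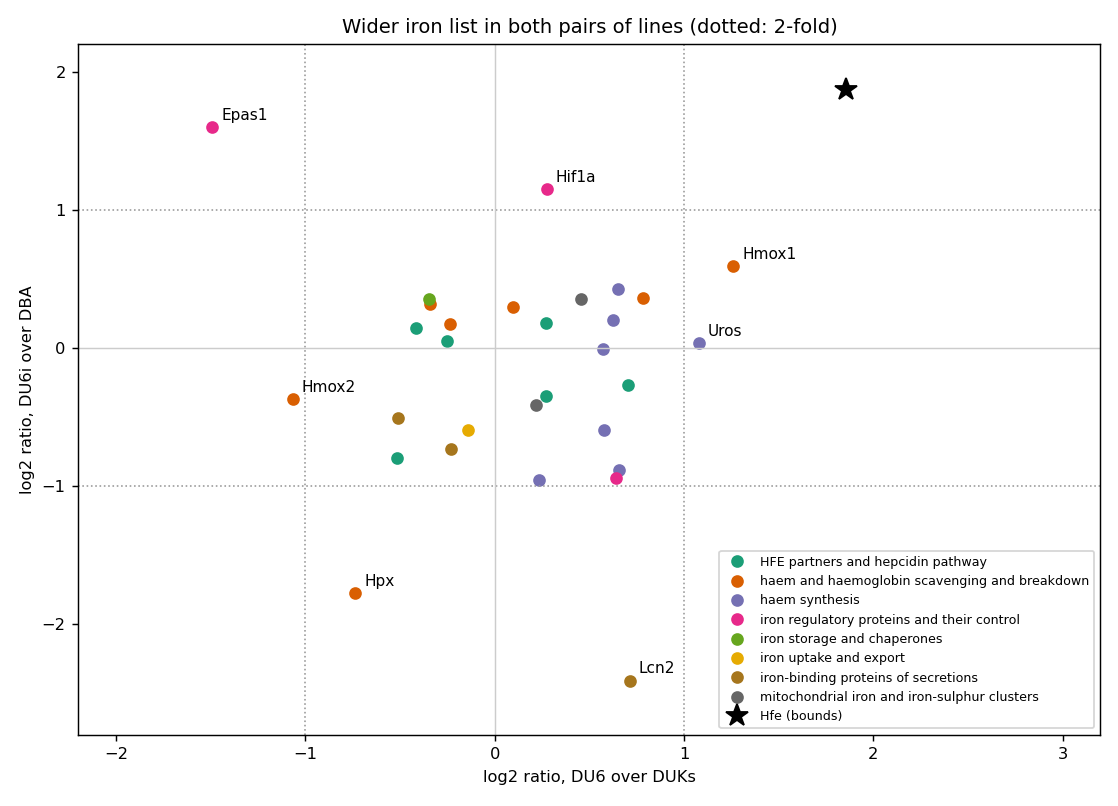
Log2 ratio of DU6 over DUKs (x axis) against that of DU6i over DBA (y axis) for the 30 genes of the wider iron list measured in both pairs, coloured by role, with Hfe as a star at its lower bounds; dotted lines mark 2-fold. Most genes lie within 2-fold in both pairs, and Epas1 is past it in opposite directions (-1.49 and 1.60).

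Genes of haem synthesis lay higher in DU6 than in DUKs in 7 of 7 measured, with a median log2 ratio of 0.63. Over all probe sets 3030 of 5604 were above 0, with a median of 0.05. Over named genes, 1 probe set each, it was 2063 of 3512, with a median of 0.10. In DU6i vs DBA 3 of 7 haem synthesis genes were above 0, with a median of -0.01. Over all probe sets it was 2641 of 5556 (median -0.03), and over named genes 1509 of 3455 (median -0.08). In DUKs vs DBA 0 of 7 were above 0 (median -0.72), and in DU6i vs DUKs 5 of 7 (median 0.57). In DU6 vs DBA it was 4 of 7 (median 0.17). Over all probe sets 2825 of 5691, 2786 of 5579 and 2750 of 5491 were above 0 in these pairs. Over named genes it was 1658 of 3563, 1694 of 3448 and 1818 of 3500. Most haem synthesis genes were thus lower in DUKs than in each other line, and the pairs with DUKs share its arrays. Uros, the uroporphyrinogen synthase, was 2.11-fold higher in DU6, with signals of 2296 in DU6 and 1087 in DUKs; the DUKs signal lay just above the floor. Uros was 1.92-fold higher when rescaled to the median of detected probe sets, 1.57-fold as log2(signal + floor) and 1.12-fold with the floor doubled. Alas1, the rate-limiting enzyme of haem synthesis outside red cells, had 27531 in DU6 and 17827 in DUKs, and 26970 in DU6i and 23421 in DBA. Alad, the second enzyme, had 30348 in DU6 and 19262 in DUKs, and 18125 in DU6i and 33467 in DBA, and so ran in opposite directions in the pairs. Alas2, the form of red cell precursors, had 10549 in DU6 and 7094 in DUKs, and 9294 in DU6i and 9352 in DBA. The red cell gene Hba-a1 had 59306 in DU6 and 73732 in DUKs, and 24005 in DU6i and 21917 in DBA.

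Of the genes that scavenge or break down haem, Hmox1, the inducible haem oxygenase, gave 4787 in DU6 against 1999 in DUKs, and 1910 in DU6i against 1267 in DBA. It was 2.39-fold higher in DU6 and 1.51-fold higher in DU6i, beside the macrophage markers named above; their part in it was not tested. Hmox2, the constitutive form, was 2.10-fold lower in DU6, with 3591 in DU6 and 7525 in DUKs. As log2(signal + floor), Hmox1 was 1.92-fold higher and Hmox2 1.67-fold lower in DU6, and with the floor doubled Hmox2 was also 1.67-fold lower. Hpx, which encodes the haem carrier haemopexin, was 3.42-fold lower in DU6i, at 2717 against 9299 in DBA; in DU6 its signal of 884 did not reach the floor. Hp, the haemoglobin-binding haptoglobin, had 69031 in DU6 and 81298 in DUKs, and 40371 in DU6i and 35757 in DBA, the same order of lines as the 99th percentiles of chip B. Lrp1, a receptor for the haem and haemopexin complex, had log2 ratios of 0.10 and 0.30.

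Among regulators, Aco1, which encodes an iron regulatory protein, gave 18391 in DU6 against 11798 in DUKs, and 12418 in DU6i against 23840 in DBA. Its log2 ratios were 0.64 and -0.94, and after quantile normalisation the second was -1.04. Hif1a, a subunit of the hypoxia-inducible factor, was 2.22-fold higher in DU6i, with 6065 in DU6i and 2730 in DBA, and 1.89-fold as log2(signal + floor). Epas1, the related subunit HIF-2 alpha, had 1106 in DU6 and 3112 in DUKs, and 3569 in DU6i and 1179 in DBA. A second Epas1 probe set gave log2 ratios of -1.48 and 1.67, as bounds. The low signals lay just above the floor or under it, and with the floor doubled the ratios of the first were -0.61 and 0.80. The lines in which Epas1 was low, DU6 and DBA, were those with the low middle signal of pyruvate carboxylase; whether the 2 are linked was not tested. Smad4, which relays the hepcidin signal, had log2 ratios of 0.27 and 0.18 by its brighter probe set. By another they were -1.07 and 1.47 as bounds, since its signals in DU6 (822) and DBA (624) lay under the floor.

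The other groups held few measured genes. The metallothioneins Mt1 and Mt2, which bind zinc and copper, had log2 ratios of -0.23 and -0.51 in DU6 vs DUKs, and of -0.73 and -0.51 in DU6i vs DBA. Another Mt1 probe set gave 4925 in DU6 against 6874 in DUKs, and 847, under the floor, in DU6i against 8204 in DBA, log2 ratios of -0.48 and -1.86, the second a bound past 2-fold. Ncoa4, the receptor that sends ferritin to the lysosome, had log2 ratios of -0.35 and 0.36. Ceruloplasmin (Cp), a ferroxidase, had 12855 in DU6 and 14200 in DUKs, and 13101 in DU6i and 19789 in DBA. The mitochondrial iron-sulphur protein gene Cisd1 had log2 ratios of 0.46 and 0.35. Lcn2, which binds iron-loaded siderophores, was 5.31-fold lower in DU6i, with 6788 in DU6i and 36012 in DBA, while DU6 had 48487 and DUKs 29578. A second Lcn2 probe set gave 27050 in DU6 against 18556 in DUKs, and 2432 in DU6i against 37640 in DBA, a log2 ratio of -3.95; DU6i was lowest by both, and the highest line was DU6 by the first and DBA by the second. Lcn2 is also made in the epididymis. In DU6i vs DBA, 5 of 5 measured epididymal markers were also 2-fold or more lower, where 6.68% of all probe sets were. Gpx5 was below 0 in DU6i (-2544) and 20753 in DBA. The part of epididymal cells in the Lcn2 difference was not tested.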

How the data were processed

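The labels name Microarray Suite 4.0.1 and Data Mining Tool 1.2 as the software with which the authors obtained expression levels, scaled per array. The deposited intensity is a linear value and falls below 0 for 12.8% to 30.5% of an array's probe sets. Detection calls and scanner files were not used here, and the genome build is not given in the sources used here.

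The 110 control probe sets were left out, and 7542 probe sets with 1 gene symbol were named through the platform annotation, with symbols updated by gene ID; 224 had several symbols and 5303 were unnamed here. The floor was the 95th percentile of the sizes of the negative signals of a chip. A probe set was measured in a pair when at least 1 of its 2 arrays was above the floor. For list genes the probe set with the highest mean signal was used. Size was judged at 2-fold, with no replicate and no p for a pair. The technical SD is the root mean square difference between the log2 ratios of 2 probe sets of a gene, divided by the square root of 2.

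The sides were compared with limma 3.58.1 (lmFit and eBayes, R 4.3.3), by chip, where 2 or more arrays exceeded the floor, with Benjamini-Hochberg adjustment over both chips; the code was tested on simulated data. Named genes were every member probe set, list genes at 2-fold in a main pair, up to 4 further genes per role group by mean signal, and the 5 genes nearest to Hfe; Hamp, Bmp4, Bmp6, marker genes and neighbours of Hfe were added after their values were seen. Members and lists were chosen with earlier results of these data known. The number of arrays limits the precision. Other floors, log2(signal + floor), quantile normalisation, rescaling and averaging of probe sets were tried.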

Additional observations from a re-analysis of the deposited data

Results flagged for a closer look

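Epas1 differed 2-fold or more in opposite directions in the 2 main pairs, with a log2 ratio of -1.49 for DU6 over DUKs and of 1.60 for DU6i over DBA. With the floor doubled they were -0.61 and 0.80, both under 2-fold, since the low lines (1106 in DU6 and 1179 in DBA) lay just above the floor of 1022.8. Each pair is 1 pool against 1 pool, and the difference between the pairs was not tested.

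The control probe sets for Tfrc, which lie outside the comparisons, gave a signal above the floor on 1 array. The 3′ probe set on chip A was 1064 in DU6i, against a floor of 1022.8, with 898 in DU6, 986 in DUKs and 662 in DBA. On chip B the 3′ signals were 825 in DU6, 1502 in DU6i, 1889 in DUKs and 1136 in DBA, all under the floor of 2258.25, and the middle probe sets were below 0 on all 8 arrays.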

How the results depend on the processing

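Of the recomputed values, 49 moved by less than the technical SD of a ratio or, as a count, by no more than 1.5 times. A further 15 moved more. Neither Hfe ratio changed direction, but Hfe was chosen as high in DU6 and DU6i, so nothing is read from this. The ferritin ratios that did change direction are given above. The Hfe log2 ratio in DU6 vs DUKs was 2.73 with the floor halved and 0.86 with it doubled; in DU6i vs DBA it was 0.87 with the floor doubled and 1.33 as log2(signal + floor). With the floor doubled, 0 members were 2-fold higher in either pair, since Hfe fell short of 2-fold by construction; with it halved, 1 member, Slc11a2, was 2-fold lower in DU6i than in DBA. In DU6 vs DUKs, list genes 2-fold higher numbered 1 with the floor doubled, 0 as log2(signal + floor) and 1 when rescaled to the median above the floor, and those lower 0 with the floor doubled and 0 as log2(signal + floor). In DU6i vs DBA, those higher numbered 1 with the floor doubled and 1 as log2(signal + floor), and those lower 4 after quantile normalisation, with Alad and Aco1 added. The cause was not tested for the counts. No list gene passed limma under any of the 6 alternatives run (0 each); with no filter on low signals 4 of all 13069 probe sets passed. Rescaling moved the median of all probe sets in DU6 vs DUKs to -0.06, against 0.05 as deposited, and the higher share of 2-fold calls to 25.6%, against 38.3%; in DU6i vs DBA that share was 52.8%, against 41.8%. With the floor halved, 368 probe sets were 2-fold higher and 612 lower in DU6 vs DUKs, against 219 and 353, and 474 and 637 in DU6i vs DBA, against 266 and 371. Signals near the floor, those of Tfrc and Slc11a2, limit what these arrays can show.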
